A study of Homo sapiens with 4 samples.

Results

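The genes described here lie in 1 block of the long arm of chromosome 13, from band q22 to q34, and were followed in RD cells, an established line of fusion-negative rhabdomyosarcoma, a tumour of the skeletal muscle lineage. A list of 59 genes of this block was given, chosen with the expression difference between the study's groups in view, so their values in that difference are a description and carry no test. Of the 59, 55 had values, all 55 entered the fit over 18330 genes, and EDNRB, HS6ST3, ITGBL1 and FGF14 were not analysed here. RNA selected with oligo(dT) beads was sequenced from 2 libraries of untreated parental RD cells with the genotype given as wild type, and from 2 libraries of vincristine-resistant RD cells of the same genotype. Vincristine binds tubulin and blocks the mitotic spindle. Resistant cells had been raised by a first exposure to 1 to 1.5 nM, at which roughly 80 to 90% of the cells died, in dose steps of 10 to 20% over 9 to 12 months, until the IC50, the dose that inhibits growth by 50%, was at least 100 times higher. The labels do not say whether the replicates were separate cultures or separate selections, so the errors and p-values given here cover the spread of these 4 libraries alone, and that spread may be technical.

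In tumour cells the copy number of a long chromosome segment is one of the things known to set the RNA level of many neighbouring genes at the same time, while single genes also depend on their own promoters and on the stability of their RNA. The block holds genes of unrelated function. Among them are parts of the gamma-tubulin complex that starts microtubules, a subunit of the anaphase-promoting complex, the cullin scaffold of a ubiquitin ligase, the partner of E2F transcription factors, DNA repair enzymes, an insulin receptor adaptor, glypicans, and developmental transcription factors of the ZIC family. DNA was not analysed here.

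Of the members, 3 pairs start back to back on opposite strands. The bases between their RefSeq start sites are shown because each pair has 1 stretch of promoter DNA for 2 genes whose values can be set side by side. The sequences are from the plus strand of chromosome 13 in GRCh38.p14, 5′ to 3′, and capitals mark matches on either strand. The motifs marked are CCAAT, known as the CCAAT box, then GGGCGG, known as the GC box, and lastly the run GCGCATGC. The stretch of DIS3 and PIBF1 lies at chr13:72781901-72782132, that of COMMD6 and UCHL3 at chr13:75549440-75549501 and that of LIG4 and ABHD13 at chr13:108218350-108218391. GENCODE places the outermost starts of these genes inside or at the edge of the same stretches.
DIS3 and PIBF1: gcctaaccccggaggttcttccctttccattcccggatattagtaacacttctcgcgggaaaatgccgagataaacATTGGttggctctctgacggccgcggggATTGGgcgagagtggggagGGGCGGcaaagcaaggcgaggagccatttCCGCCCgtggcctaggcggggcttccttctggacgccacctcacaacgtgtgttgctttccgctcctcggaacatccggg
COMMD6 and UCHL3: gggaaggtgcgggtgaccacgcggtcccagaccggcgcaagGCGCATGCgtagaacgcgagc
LIG4 and ABHD13: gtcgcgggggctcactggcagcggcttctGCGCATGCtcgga
The stretches are 232, 62 and 42 bases long, with a GC content of 60.3, 71.0 and 71.4%.

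Most members were lower in the resistant libraries, and 22 of the 55 lay within 0.25 of their median on the log2 scale. The median log2 fold change of resistant over parental cells was -0.76, which is 59.2% of the parental level, beside 0.00 over all genes tested. The quartiles of the members were -1.05 and -0.41, and the whole range ran from -4.15 for GPC6 to 2.25 for ZIC5. Values are normalized counts, the authors' read counts per gene divided by 1 factor per library, and fold changes are on the scale of log2(normalized count + 1). Passing the threshold means an adjusted p below 0.05 in limma with Benjamini-Hochberg adjustment over all 18330 genes. By this threshold 41 of the 55 members were lower, 5 were higher and 9 were not past it. Over all genes tested 34.2% were lower and 32.7% higher, 66.9% in either direction, and because the members were chosen from this comparison nothing is read from the difference. In 44 of the 55 both resistant libraries were below both parental ones, a pattern held by 41.1% of all genes tested. A log2 fold change of -0.5 or below was seen in 38 members and in 17.8% of all genes. The authors' deposited table, which holds their own fold changes and adjusted p-values, has 41 of the 55 lower and 2 higher, with the same call for 52. The calls that differ are those of PIBF1, ZIC2 and ABHD13, which were higher by limma and did not pass 0.05 there.

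The shift did not rest on 1 library. From library to library, the members' median log2 ratio of resistant over parental was -0.70, -0.76, -0.75 and -0.78 in the 4 possible pairs. Between the 2 parental libraries it was -0.01, and between the 2 resistant ones -0.04. Single members varied more, from -0.67 to 0.32 between the parental libraries and from -1.42 to 0.54 between the resistant ones, where 36 of the 55 were lower in replicate 2.

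**Figure D1:**
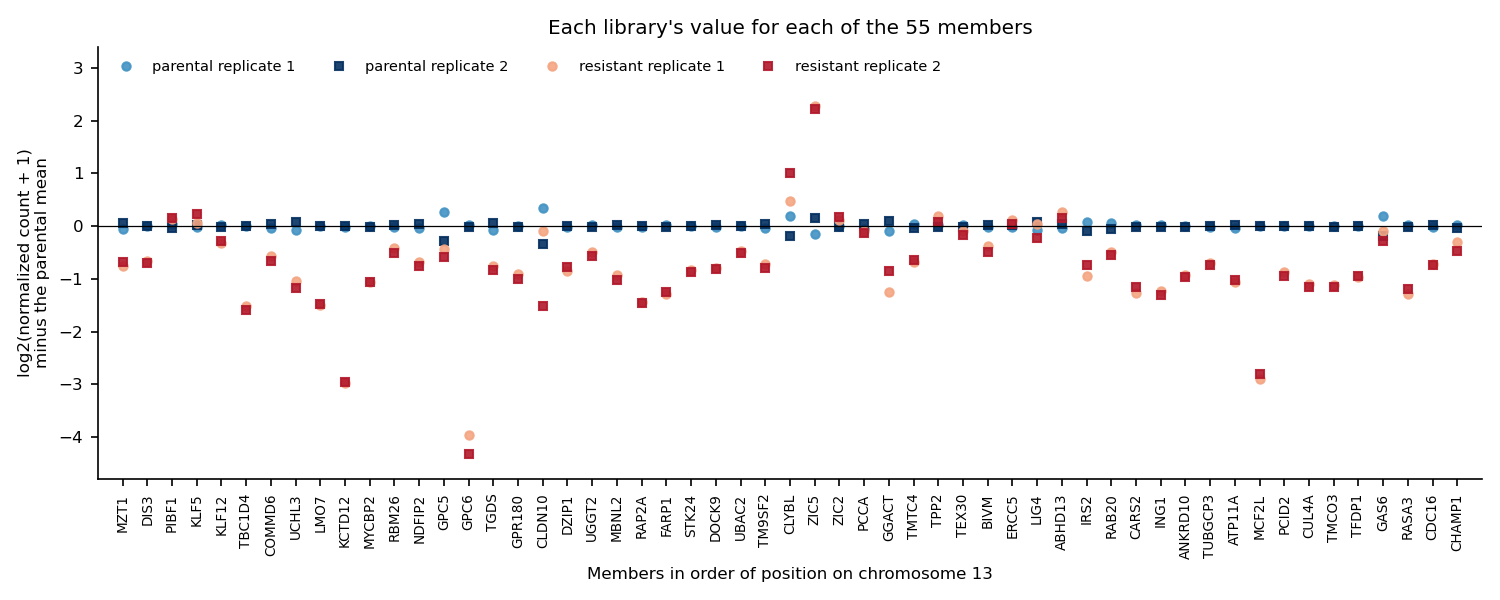
Each library's log2(normalized count + 1) minus the mean of the 2 parental libraries (vertical axis) for the 55 members in order of position (horizontal axis). Circles and squares are replicates 1 and 2, blue parental and red resistant. The resistant points of most members sit below 0, and 22 of the 55 members have a log2 fold change within 0.25 of the median of -0.76. The resistant points of GPC6, KCTD12 and MCF2L lie far lower, and those of ZIC5 lie above 2.

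The members are next taken by role. Over all 55 members 41 were lower, and over all genes tested 34.2%, so nothing is read from the counts or medians of the role groups. The microtubule and centrosome members were lower except PIBF1. MZT1, a small protein that docks the gamma-tubulin ring complex at centrosomes, had 2316 and 2524 normalized counts in the parental and 1439 and 1514 in the resistant libraries. Both resistant values were below both parental ones, at 61.0% of the parental mean, a log2 fold change of -0.71 (SE 0.05). TUBGCP3, a core subunit of that ring complex, had 2928 and 2960 against 1817 and 1773. Its log2 fold change was also -0.71 (SE 0.04), although the genes lie at opposite ends of the block. PIBF1, a protein of the centriolar satellites, was at 898 and 851 in parental and 962 and 976 in resistant cells. The groups of PIBF1 did not overlap and the resistant values were the higher ones, a log2 fold change of 0.15 (SE 0.06) that was no longer past the threshold when parental replicate 1, parental replicate 2 or resistant replicate 2 was left out. In every such fit with 1 library left out, 1 group has a single library, which is assumed to vary like the other group.

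The 5 cell cycle members CDC16, CUL4A, TFDP1, ING1 and CHAMP1 were lower, with a median of -0.96. CDC16, a subunit of the anaphase-promoting complex that ends mitosis by marking cyclins and securin for destruction, had 2904 and 2987 normalized counts in parental and 1778 and 1755 in resistant libraries. At 60.0% of the parental mean (log2 fold change -0.74, SE 0.04) it was among the 3 members nearest to the median of the block. CUL4A, the scaffold of a ubiquitin ligase that acts in replication and repair, had 9981 and 9940 against 4650 and 4499. That put CUL4A at 45.9% of the parental mean, a log2 fold change of -1.12 (SE 0.03). TFDP1, which encodes DP1, the partner that E2F factors need to bind DNA well, had 11476 and 11387 against 5839 and 5914. Its resistant level was 51.4% of the parental one (log2 fold change -0.96, SE 0.03), and TFDP1 had the highest mean normalized count of all members. Per kilobase of exon it also led them, with 3056 normalized counts in parental and 1571 in resistant cells, beside medians over the members of 356 and 184. CHAMP1, which helps attach chromosomes to the spindle, moved least of the 5, from 2348 and 2257 to 1876 and 1653, a log2 fold change of -0.39 (SE 0.05).

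Both DNA repair members stayed near their parental level. ERCC5, the XPG nuclease that cuts damaged strands in nucleotide excision repair, had 391 and 403 normalized counts in parental and 431 and 409 in resistant cells. The difference was within its error, with a log2 fold change of 0.08 (SE 0.09). Because 63.2% of its exonic bases are shared with the readthrough gene BIVM-ERCC5 on the same strand, the count of ERCC5 is uncertain, and so is that of BIVM, with 37.9% shared. LIG4, the ligase that closes breaks in end joining, had 734 and 808 against 792 and 660. Its groups overlapped, and the log2 fold change of -0.09 (SE 0.08) turned to 0.041 without resistant replicate 2 and to -0.22, past the threshold, without resistant replicate 1.

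All 4 members of RNA decay, binding and export were lower, with log2 fold changes from -0.97 to -0.46. They are DIS3, a ribonuclease of the RNA exosome, RBM26, the splicing regulator MBNL2, and PCID2, a part of the export complex TREX-2. The 7 members listed, in a broad sense, under the ubiquitin system were lower as well, with a median of -1.06. They lay between -1.11 and -0.48 apart from KCTD12 and LMO7, which were lower still. KCTD12, an auxiliary subunit of GABA-B receptors with the fold of cullin adaptors, stood apart among them. It had 8958 and 9093 normalized counts in the parental and 1139 and 1157 in the resistant libraries, 12.7% of the parental mean and a log2 fold change of -2.97 (SE 0.04). LMO7, a LIM domain protein of cell junctions, had 10919 and 10969 against 3859 and 3927. It is among the 3 most abundant members by count and was at 35.6% of its parental mean (log2 fold change -1.49, SE 0.03). NDFIP2, an adaptor that activates ubiquitin ligases of the NEDD4 family, had 3504 and 3657 against 2231 and 2108, a log2 fold change of -0.72 (SE 0.04) close to the median of the block.

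GTPase regulators and kinases gave the lowest median of the role groups, -1.25, and all 8 were lower. With 41 of all 55 members lower and few genes per group, nothing is read from this order. MCF2L, a guanine nucleotide exchange factor, had 5260 and 5234 normalized counts in parental and 701 and 745 in resistant cells. This was 13.8% of the parental mean, a log2 fold change of -2.86 (SE 0.05). TBC1D4, the Rab regulator that holds back glucose transporters until insulin acts, had 2868 and 2842 against 991 and 952, a log2 fold change of -1.55 (SE 0.05). The other 6, RAP2A, FARP1, STK24, DOCK9, RAB20 and RASA3, lay between -1.46 and -0.52. STK24 shares 63.2% of its exonic bases with FARP1 on the opposite strand, which is 21.1% of those of FARP1. The strand setting of the counting is not given in the sources used here, so reads from the shared bases cannot be told apart.

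Signalling members differed widely in size. Of 10 listed, 6 had values and 3 of the 6 were past the threshold, all lower. GPC6, a glypican that carries heparan sulfate on the cell surface, had 3053 and 2956 normalized counts in the parental and 192 and 148 in the resistant libraries. It held the lowest log2 fold change of the members, -4.15 (SE 0.09), and the resistant level was 5.65% of the parental one. Its neighbour GPC5 was near the lower limit of the table, at 16.4 and 10.9 against 9.74 and 8.59. IRS2, the adaptor that passes insulin and IGF signals on to PI3 kinase, had 565 and 502 against 276 and 321, and its log2 fold change was -0.84 (SE 0.09). GAS6, the ligand of the receptors TYRO3, AXL and MERTK, was at 204 and 158 against 168 and 147. The GAS6 groups overlapped, with a log2 fold change of -0.19 (SE 0.14), and -0.38 and past the threshold without parental replicate 2.

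Of the ZIC genes, ZIC5 went far against the direction of the block and ZIC2 only slightly. ZIC5, a zinc finger factor of neural crest and brain development, had 44.5 and 55.7 normalized counts in parental and 245 and 236 in resistant cells. The groups were far apart, a 4.75-fold higher level on the fitted scale and a log2 fold change of 2.25 (SE 0.16). Its neighbour ZIC2 was at 1103 and 1091 against 1194 and 1238, a log2 fold change of 0.15 (SE 0.06) that missed the threshold without parental replicate 1, parental replicate 2 or resistant replicate 2. Per kilobase of exon ZIC2 remained above ZIC5 in both groups, at 331 against 10.8 in parental and 367 against 51.8 in resistant cells. Of the other factors in this role group, KLF12 was lower (-0.30) and KLF5 had a log2 fold change of 0.15 (SE 0.09), not past the threshold, and of 0.24, past it, without resistant replicate 1.

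The 8 metabolic and protein-handling enzymes were mixed, with 4 lower and 2 higher. ABHD13, which belongs to the alpha/beta hydrolases, had 721 and 766 normalized counts in parental and 897 and 823 in resistant cells. Its log2 fold change of 0.21 (SE 0.07) lost the threshold without parental replicate 1 or resistant replicate 1. TPP2, a large cytosolic peptidase, had a log2 fold change of 0.13 and lost it without parental replicate 2 or resistant replicate 1. CLYBL, a mitochondrial enzyme that acts on citramalyl-CoA, had few reads, with 18.4 and 13.9 against 22.7 and 33.4, and its log2 fold change of 0.75 (SE 0.35) was not past the threshold. It passed, as higher, with values scaled to the same total (0.78), without parental replicate 1 (0.94) and without resistant replicate 1 (1.02). Among the 7 membrane and other members 6 were lower. TM9SF2, a Golgi and endosome membrane protein, had 9568 and 10058 normalized counts against 5962 and 5655, and its log2 fold change of -0.76 (SE 0.04) is the median of the 55 members.

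A shared shift can be looked at across expression levels. The members were cut into 3 classes by mean normalized count over the 4 libraries. In the lowest class, 19 members with means from 10.5 to 852, the median log2 fold change was -0.43 and 9 were lower. In the middle class, 18 members from 922 to 2612, it was -0.84 and 15 were lower. In the highest class, 18 members from 2875 to 8654, it was -0.94 and 17 were lower, TPP2 being the exception. Over the 55 members Pearson's r between log2 mean level and log2 fold change was -0.38 and Spearman's rank correlation was -0.48, beside -0.12 and -0.13 over all genes. These are descriptions, since all points share the same 4 libraries and members with few reads have larger errors. After the values were seen, the 11 members from ZIC5 to ABHD13 were set aside, and the 3 level classes of the remaining 44 had medians of -0.61, -0.91 and -1.01. In those 44, every member of the middle and highest class, 15 and 14 genes, was lower, beside 34.2% of all genes tested. The members set aside include TPP2, ZIC2 and PCCA, which were not lower, and the new cut puts PIBF1 into the lowest class. This count therefore follows from a choice made after the values were seen, and nothing is read from it.

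**Figure D2:**
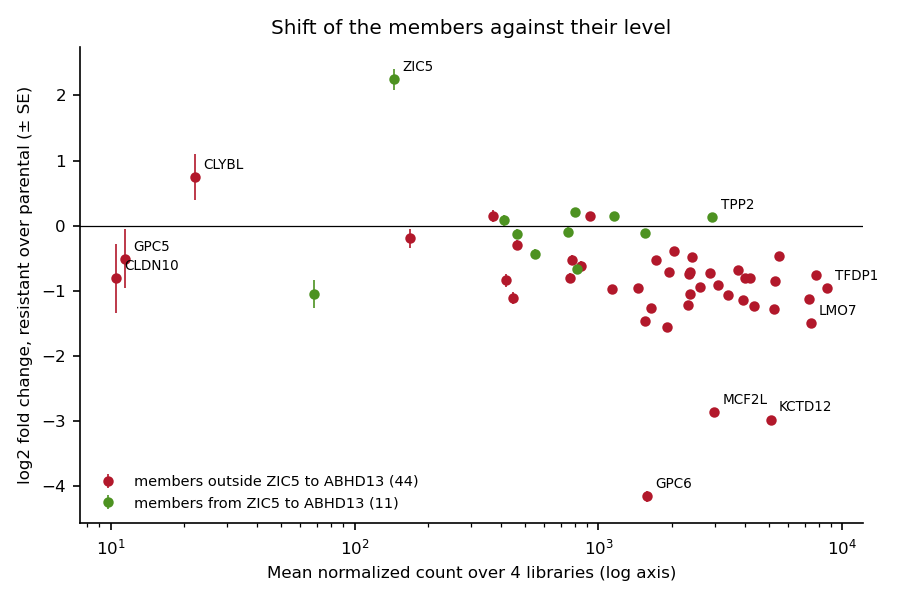
Log2 fold change of resistant over parental (vertical axis, bars are the SE from limma) against the mean normalized count over 4 libraries (horizontal log axis) for the 55 members. Red points are the 44 members outside the stretch from ZIC5 to ABHD13 and green points the 11 within it. Members with means above 2875 lie below 0 apart from TPP2, and the widest bars belong to CLDN10, GPC5 and CLYBL.

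Placed by GENCODE 29 on GRCh38, the members span 41.6 Mb, from 72708357 to 114337626 on chromosome 13. In 3 equal classes along the chromosome the medians were -0.79, -0.51 and -0.93. With stretches drawn after the values were seen, the 28 members from MZT1 to CLYBL had a median of -0.80, with 23 lower, PIBF1 higher and KLF5, GPC5, CLDN10 and CLYBL not past the threshold. Without the 5 members before TBC1D4 and without CLYBL, the 22 that remain had a median of -0.83, with 20 lower. The 11 members from ZIC5 to ABHD13 had a median of -0.09, with 3 lower, 4 higher and 4 not past the threshold. The 4 tested genes in that stretch that were not listed had a median of -0.73, NALCN (-3.30) and EFNB2 (-1.52) being lower, ARGLU1 (0.15) higher and KDELC1 (0.07) not past the threshold. The 16 members from IRS2 to CHAMP1 had a median of -0.95, with 15 lower and GAS6 not past the threshold. The members from ZIC5 to ABHD13 that were lower are GGACT, TMTC4 and BIVM.

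Genes of the table that lie between the members but were not listed were also mostly lower. There are 48 of them, with a median log2 fold change of -0.84, of which 37 were lower, 4 higher and 7 not past the threshold. Over all genes tested 34.2% were lower and 32.7% higher. The block was chosen with this comparison in view, so its unlisted genes are no independent check, and nothing is read from their shift. The 27 that code for proteins had a median of -0.80 and the 21 others, such as long noncoding RNAs and pseudogenes, a median of -0.90. The median level of the 21 was only 40.5 normalized counts. Several are named as antisense or intronic transcripts of members, such as RBM26-AS1, STK24-AS1, UBAC2-AS1 and RASA3-IT1, and AL137782.1 shares exonic bases with UCHL3 and LMO7. As the strand setting is not given, some of their reads may belong to members, so they are not separate from them. No tested gene lies beyond CHAMP1. On the other side of MZT1, the 173 tested genes of chromosome 13 had a median of 0.04, with 56 lower, 56 higher and 61 not past the threshold. Within these, again drawn after the values were seen, 42 genes at the centromere side up to CDK8 had a median of -0.67 with 33 lower and 0 higher. The 131 genes from WASF3 to PCDH9 had a median of 0.13. The nearest tested gene outside the block, PCDH9, had a log2 fold change of 1.08.

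**Figure D3:**
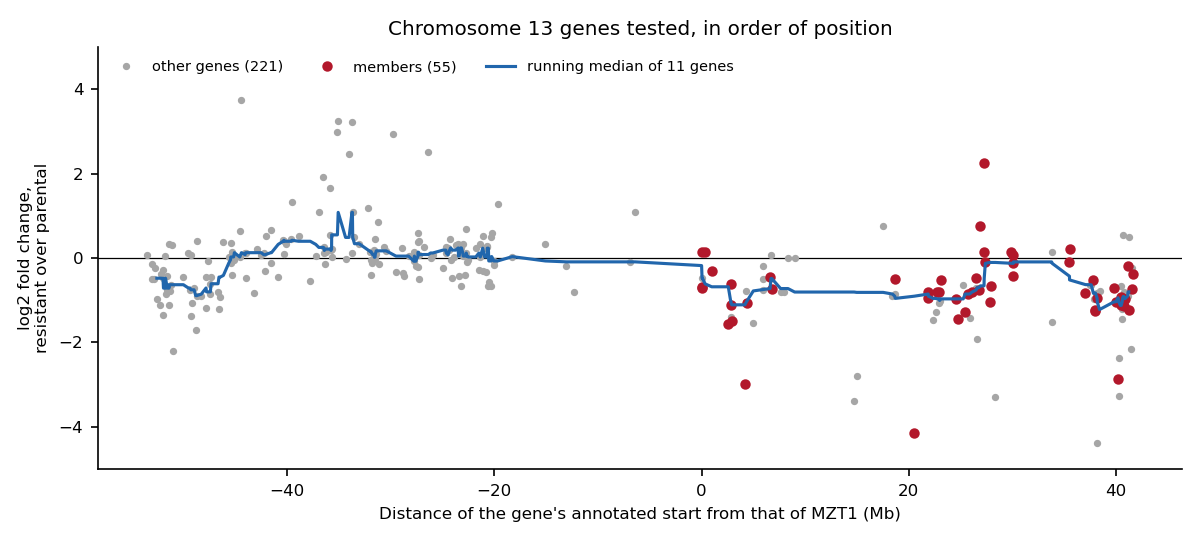
Log2 fold change of resistant over parental (vertical axis) for the 276 tested genes of chromosome 13, against the distance of each gene's start from that of MZT1 in Mb (horizontal axis). Red points are the 55 members, grey points the other genes, and the blue line is the running median of 11 consecutive genes. The line lies below 0 over most of the block, lies near 0 over most of the stretch from ZIC5 to ABHD13, and is also below 0 at the left end.

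Neighbours that start back to back showed how far single genes departed from each other within the block. DIS3 had 4567 and 4605 normalized counts in parental and 2899 and 2822 in resistant cells, a log2 fold change of -0.68, whereas PIBF1 on the other strand was at 0.15. The difference between them, PIBF1 minus DIS3, was 0.83 (SE 0.07), although their RefSeq start sites lie 233 bases apart. COMMD6, a regulator of NF-kappa-B, and UCHL3, a ubiquitin hydrolase, were both lower, at -0.61 and -1.11, and the difference was -0.50 (SE 0.11). UCHL3 shares 30.4% of its exonic bases with another gene on the same strand, so its count is uncertain. LIG4 and ABHD13 differed by 0.30 (SE 0.10), the second being higher. Of the pairs with other start distances, ING1 minus CARS2 was -0.04 (SE 0.07) and CUL4A minus PCID2 was -0.21 (SE 0.05). Leaving out resistant replicate 1 gave -0.14 for ING1 and CARS2, and leaving out resistant replicate 2 gave 0.053.

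The printed stretches differ in the motifs they hold. Between DIS3 and PIBF1 there are 2 matches to CCAAT and 2 to GGGCGG on either strand. Neither was found between COMMD6 and UCHL3 or between LIG4 and ABHD13, which each hold 1 match to GCGCATGC. Over the RefSeq promoters of 56 listed genes, including some with no expression value here, 60.7% held GGGCGG and 35.7% CCAAT, beside 68.2% and 36.1% of 11471 tested genes with a promoter of the same length. CACGTG was in 12.5% against 9.83%, CCGGAAGT in 12.5% against 7.99% and TATAAA in 7.14% against 6.10%. The search had first been made for the full palindrome of the factor NRF1, 10 letters long, over every promoter entry, some genes having several. It was in 3.13% of the listed genes' entries and 1.84% of those of tested genes, and with 1 entry per gene in 1.79% and 2.22%. It was shortened to GCGCATGC after the stretches above had been read, and the shorter form was in 17.9%, 10 of 56 listed genes, against 5.28%. The last contrast therefore depends on a choice made from the members' own sequences, and back-to-back pairs count the same bases under both genes, so nothing is read from it. The 9 genes with this match that have values include 7 lower members, LIG4 and ABHD13. Of all 55 members 74.5% were lower, and of all genes tested 34.2%, so nothing is read from this count either.

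Many members work in complexes whose other subunits are encoded elsewhere. The lists of these partners were drawn up with earlier results of these data known. Because the members were chosen from this comparison, nothing is read from the distance between their median and those of the partner lists. Partner counts come from the same fit over all genes, in which 66.9% of genes passed the threshold in either direction, 34.2% as lower and 32.7% as higher. Median log2 fold changes of the partner lists lay between -0.38 and 0.26. The partners of MZT1, TUBGCP3 and PIBF1 in the gamma-tubulin and augmin complexes numbered 19 with values, of which 13 were higher, 3 lower and 3 not past the threshold, with a median of 0.25. CDK5RAP2, which tethers gamma-tubulin rings to centrosomes, rose from 5855 and 5523 to 10367 and 10459 normalized counts. This is a log2 fold change of 0.87 (SE 0.03, limma adjusted p = 4.83e-18). TUBGCP6, a ring subunit, rose by 0.70 (SE 0.05) and CEP192, a scaffold of centrosome maturation, by 0.57 (SE 0.04). The 3 lower partners were MZT2A (-0.57) and MZT2B (-0.51), a near-identical pair of small proteins of the same ring complex whose counts may be split between them, and HAUS3 (-0.26), named after their values were seen.

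Subunits and activators of the anaphase-promoting complex were split, with 6 higher, 5 lower and 6 not past the threshold among 17. The subunits ANAPC16, ANAPC5 and ANAPC7 rose, by 0.86, 0.55 and 0.49 on the log2 scale, beside -0.74 for CDC16. Of 16 partners of CUL4A in the ligase, 4 were higher and 4 lower. DCAF7, a substrate adaptor, fell from 25937 and 25747 to 11296 and 11070 normalized counts, a log2 fold change of -1.21 (SE 0.03). DCAF13 fell by 0.50 and DTL, an adaptor for proteins destroyed during replication, rose by 0.78. The RNA exosome around DIS3 gave 4 higher and 4 lower of 14, among them EXOSC1 (0.34), EXOSC2 (0.26) and EXOSC4 (-0.38). EXOSC1 and EXOSC2 passed the test against no change but not the one against a change of 1.2-fold (limma adjusted p = 0.101 and 0.890).

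The list around DP1 holds E2F factors, the related TFDP2, and RB1 with its relatives RBL1 and RBL2. Of these 12 genes, 8 were higher, 1 lower and 3 not past the threshold, with a median of 0.23. The higher ones were E2F1, E2F2, E2F4, E2F5, E2F7, RB1, RBL1 and RBL2, while E2F3, E2F6 and TFDP2 were not past the threshold. E2F2, an activator of replication genes, rose from 1160 and 1068 to 2980 and 2995 normalized counts (log2 fold change 1.42, SE 0.05, limma adjusted p = 3.44e-19). E2F7 rose by 0.70 and E2F8 fell by 0.45, both atypical repressors of the family that bind DNA without DP1. RB1, which lies on chromosome 13 outside the block, is counted among the 12.

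Repair partners moved in both directions. In end joining 7 of 12 were lower and 4 higher, with APLF (-2.22), DCLRE1C (-0.67) and POLL (0.51) furthest from 0. APLF, a scaffold of the ligase complex with LIG4, fell from 183 and 199 to 44.4 and 36.3 normalized counts (SE 0.18, limma adjusted p = 1.95e-11). In nucleotide excision repair 8 of 21 were lower and 6 higher. ERCC1, the non-cutting partner of the nuclease ERCC4, fell from 5605 and 5708 to 3001 and 3258, by 0.86 (SE 0.04) on the log2 scale. ERCC4, which cuts on the other side of the damage from ERCC5, was not past the threshold (log2 fold change 0.06). GTF2H3 rose by 0.82 and ERCC6 by 0.67.

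Glypican and heparan sulfate genes held the widest changes among the partners. Of 20, 11 were higher, 6 lower and 3 not past the threshold. GPC3, a glypican on chromosome X, rose from 307 and 303 to 4994 and 5108 normalized counts, a log2 fold change of 4.04 (SE 0.05, limma adjusted p = 3.86e-28). SULF2, which removes sulfate groups from heparan sulfate outside the cell, rose from 551 and 584 to 15035 and 15896, by 4.77 (SE 0.04). Thus GPC6 of the block and GPC3 stood on opposite sides. Of the other glypicans in this list, GPC4 was higher (3.41), GPC2 lower (-0.23) and GPC1 not past the threshold (-0.05). HS3ST1, a sulfotransferase, had 43.5 and 39.8 normalized counts in parental cells and 1.08, the value of 1 read, and 0 in resistant cells.

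Of 13 receptors and adaptors around IRS2, 8 were lower and 3 higher, beside 34.2% and 32.7% of all genes tested. INSR, the insulin receptor, fell from 961 and 966 to 413 and 399 normalized counts (log2 fold change -1.24, SE 0.07, limma adjusted p = 1.54e-14). PIK3CB fell by 1.00 and PIK3R1 rose by 1.09. Around GAS6, 5 of 6 genes were lower and 1 higher. The receptor AXL fell from 13810 and 13393 to 4016 and 4011 (log2 fold change -1.76, SE 0.03), the related ligand PROS1 by 1.09 and the receptor TYRO3 by 0.38. The relatives of ZIC2 and ZIC5 included 4 higher and 3 lower of 8. ZIC1 fell from 10533 and 10099 to 6449 and 6893 (log2 fold change -0.63, SE 0.04), whereas GLI3 rose by 1.56 and GLI1 by 0.72.

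**Figure D4:**
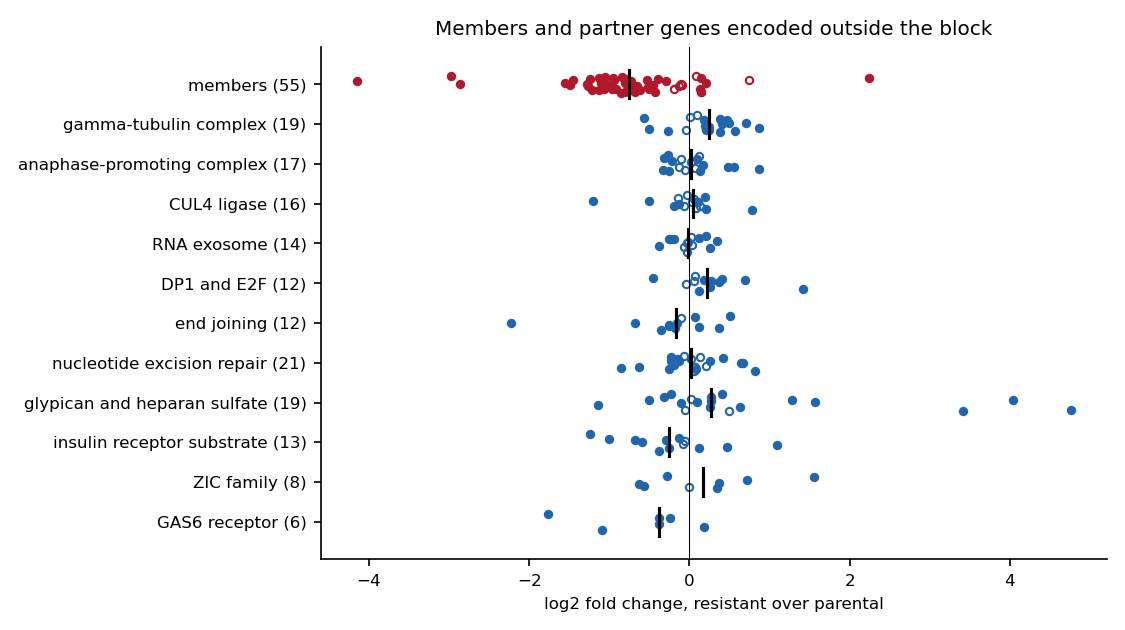
Log2 fold change of resistant over parental (horizontal axis) for the 55 members (red) and 11 lists of partner genes (blue, number of genes shown in brackets). Filled points passed the limma threshold, open points did not, black bars are medians, and vertical scatter within a row has no meaning. HS3ST1 is left out of the points and the bar because it had 1 read in the resistant libraries. The members' median of -0.76 lies to the left of those of all 11 lists, but the members were chosen from this comparison, so nothing is read from this.

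The libraries were alike in depth. The values of each column are whole multiples of 1 step within a tolerance of 0.01, which would give 58861281 to 67690557 reads per library over the 18375 genes of the table. For parental replicate 2 the step, 0.994, is so close to 1 that its total is less certain. Of 9 markers of the labelled muscle lineage 8 had values, with sums of 101227 to 101772 normalized counts in parental and 175647 to 180653 in resistant libraries. Of 5 epithelial markers 4 had values, with sums of 96.7 to 103 and 105 to 171. Of 4 neuronal markers 2 had values, with sums of 357 to 389 and 386 to 429. The only immune marker with a value, CD14 of 5 listed, had 28.8 to 30.0 and 34.6 to 49.6. Of 4 endothelial markers only TEK had a value, at 188 to 210 in parental and 1690 to 1729 in resistant libraries. The part of these markers in the members' values was not tested.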

How the data were processed

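Members, gene lists and tests were chosen with earlier results of these data known. The submitters' processing notes name GRCh38, DESeq2, Subread 1.5.2 with featureCounts, STAR 2.5.2b and bcl2fastq 2.17. The columns deposited by the authors hold a signal of normalized counts, each gene count divided by 1 factor per library. Fold changes on a log2 scale and p-values were also deposited by the authors, per the file headers, and are used only where named. Of 18375 genes, the 18330 that reached 10 in 2 or more libraries were fitted on log2(value + 1) with limma 3.58.1 in R 4.3.3 (eBayes with an intensity trend, group alone, two-sided, threshold 0.05). The fit was also run on simulated data. The pass mark of that run was lowered after its outcome was seen, and its spread came from the real fit, so it is no independent check. The pseudocount can understate the change of low genes. The smallest mean in the table was 9.98, so weaker genes are not covered. Positions are from GENCODE 29, and promoters (1 entry per gene) from RefSeq on GRCh38.p14. Named genes are the microtubule, centrosome, cell cycle, repair, signalling and ZIC members, the 4 highest and 4 lowest, the 3 nearest the median, the 3 most abundant, and up to 3 called partners of each list with the largest change. Alternatives were other pseudocounts, filters and scalings, a test against 1.2-fold, the replicate block, and leaving out each library. Genes named beyond the rule were chosen after their values were seen.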

Additional observations from a re-analysis of the deposited data

How the results depend on the processing

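No setting moved the median of all genes by over 0.1 on the log2 scale. The call or the direction differed from that reported for 11 of the 55 members under at least 1 alternative, 24 of 598 values, and for 2 of 33 named partner genes. The members' median was -0.72 with values scaled to the same total and -0.77 to -0.72 with 1 library left out. The median of the unlisted genes between the members was -0.80 with a pseudocount of 5, -0.82 with a minimum value of 50, -0.81 with the same total and -0.85 to -0.79 with 1 library left out. Before the first member the median of chromosome 13 genes ran from -0.00060, without resistant replicate 1, to 0.068. LIG4 ran from -0.22, without resistant replicate 1, to 0.041, without resistant replicate 2. Against a change of 1.2-fold, 6794 genes were called in place of 12271. Of the members, 1 in place of 5 was then called higher, ZIC5, and 2 to 5 with 1 library left out. Partners called against 1.2-fold numbered 9 for the gamma-tubulin complex, 3 for the anaphase-promoting complex, 3 for the CUL4 ligase, 1 for the RNA exosome, 5 for DP1 and E2F, 4 for end joining, 6 for nucleotide excision repair, 10 for glypican and heparan sulfate, 6 for the insulin receptor substrate and 4 for the ZIC family. That test asks for a larger change by construction, and the cause of the other shifts was not tested. With the replicate number as a block, 12144 genes were called, 46 members as before, and no member or named partner changed its call. The deviations of same-numbered libraries from their group means had a correlation of -0.03 over genes. With 2 libraries per group the deviations of replicates 1 and 2 mirror each other, so this value does not settle whether the numbers pair the libraries. Tests on counts with edgeR or DESeq2, their other normalizations and a fixed dispersion were not run, because the columns were treated as normalized values. Depth limits GPC5, CLDN10 and CLYBL, whose means are under 50. CLDN10 also shares 46.1% of its exonic bases with DZIP1 on the opposite strand, which is 18.4% of those of DZIP1. DIS3 shares 10.9% with BORA on the opposite strand. As the strand setting is not given, reads from these shared bases cannot be told apart.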
